A study of Rattus norvegicus with 62 samples.

Results

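The 8 genes described here are genes of microglia, the resident macrophages of the brain, and of the complement cascade. These 8 were followed in amygdala RNA from 62 male Long Evans rats. They were chosen by name from 32545 annotated genes, as 4 genes of microglia and 4 of complement, and all 8 were among the 16535 genes with enough counts to be tested. Rats were 10 to 12 weeks old at exposure. Blast animals received 3 blast overpressure events of 74.5 kPa in a shock tube, 24 h apart, under isoflurane anesthesia, and sham animals were anesthetized and handled alike without the blast wave. There were 17 blast and 17 sham animals at the sub-acute time-point (labeled acute in the deposited record), tested for behavior 1 to 1.5 months after exposure, and 14 blast and 14 sham animals at the chronic one, kept for 12 to 14 months before testing, and tissue was taken in the weeks after the last test. The time-points therefore also differ in age, since chronic animals were about a year older, and in the behavioral tests given, which were the same for blast and sham animals within a time-point but fewer at the chronic one. Tissue was taken as 1.5 mm punches of the central and basolateral amygdala, so each sample is a mixture of neurons, glia and vessel cells. In such bulk tissue, more microglia and more RNA of a gene per microglial cell cannot be told apart. The cell type that each RNA came from was not measured.

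As background, microglia depend on signaling through the receptor encoded by Csf1r, carry the integrin chain CD11b encoded by Itgam, and contain the calcium-binding protein IBA1 encoded by Aif1, which is the usual stain for these cells. Cd68 encodes a lysosomal membrane protein of phagocytes. In the brain, C1q is made largely by microglia from 3 chains, encoded by C1qa, C1qb and C1qc, that assemble into 1 recognition complex. C1q opens the classical complement pathway, which leads to cleavage of C3, the protein on which all complement pathways converge and which tags synapses and debris for uptake.

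The promoters of C1qa, C1qb and C3 are shown because C1qa and C1qb moved closely together across animals while C3 was the member that differed most between time-points. RefSeq sequences of the GRCr8 assembly, a different build from the Rnor 6.0 genome of the counts, covered 6 of the 8 genes, without Aif1 and C1qc. The 250 bases before the start of each gene are given 5′ to 3′ along the gene, which lies on the minus strand in all 3 cases. C1qa is at chr5:154419934-154420183, C1qb at chr5:154407828-154408077 and C3 at chr9:2201340-2201589. Capitals mark matches, on either strand, to a PU.1 core (GAGGAA), a C/EBP motif (TTGCNNAA) and an NF-kB motif (GGGA, any 4 bases, then CC).
C1qa: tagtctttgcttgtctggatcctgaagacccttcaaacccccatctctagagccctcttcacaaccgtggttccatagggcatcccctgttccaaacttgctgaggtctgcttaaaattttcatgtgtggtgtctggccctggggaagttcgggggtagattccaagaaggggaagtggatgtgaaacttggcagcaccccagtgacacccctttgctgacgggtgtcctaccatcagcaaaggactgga
C1qb: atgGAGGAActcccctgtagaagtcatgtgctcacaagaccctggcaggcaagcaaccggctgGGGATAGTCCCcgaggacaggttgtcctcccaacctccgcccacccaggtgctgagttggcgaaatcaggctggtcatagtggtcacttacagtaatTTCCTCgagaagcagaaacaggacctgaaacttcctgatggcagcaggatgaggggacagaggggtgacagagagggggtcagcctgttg
C3: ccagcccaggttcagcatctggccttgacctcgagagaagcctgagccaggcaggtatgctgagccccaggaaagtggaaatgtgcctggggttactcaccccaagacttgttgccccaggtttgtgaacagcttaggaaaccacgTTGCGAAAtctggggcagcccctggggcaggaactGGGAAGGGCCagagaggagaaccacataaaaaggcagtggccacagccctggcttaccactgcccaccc
The C1qa window held no match to the 3 motifs. The C1qb window held 2 PU.1 cores, 1 on each strand, and an NF-kB match that was read on both strands at overlapping positions. The C3 window held 1 C/EBP match and, nearer the start, 1 NF-kB match that lies from 69 to 60 bases before it. Of the 33469 promoters of the same length, 23.3% held a PU.1 core, 9.22% a C/EBP motif and 16.4% an NF-kB motif. The windows of Itgam and Csf1r held 2 PU.1 cores each and that of Cd68 held 1. A match is a description of the letters and not of binding.

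Counts were expressed per library size as CPM after scaling with TMM factors, and groups were compared by voom and limma over all 62 animals, with p-values adjusted by Benjamini-Hochberg over all genes tested. A gene was called with an adjusted p under 0.05 and a fold change of at least 1.2. Library totals ran from 18220986 to 78585782 counts, and medians were lower at the chronic time-point. Animal numbers begin with 1, 2 or 6, which is called the number series here because the record does not say what it stands for. All chronic animals were in series 1, against 2 of 17 sub-acute sham and 5 of 17 sub-acute blast animals, so the comparison of time-points largely follows the number series. Levels of different genes were not compared, since CPM is not corrected for gene length.

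C3 (ENSRNOG00000046834) was higher at the chronic than at the sub-acute time-point in both treatment groups. Sub-acute sham animals had a lowest, median and highest level of 4.22, 10.3 and 20.4 CPM, and chronic sham animals of 9.63, 18.01 and 49.6 CPM. The groups overlapped, with 5 of 14 chronic sham animals above the highest sub-acute sham animal and 13 of 14 above the sub-acute median. The log2 fold change was 1.02 (SE 0.27, limma, adjusted p = 0.029), a fold of 2.03. Here 1 of 8 members was called, where 1.55% of all genes tested were called and 1.14% were called higher. The call in sham animals did not hold in every fit. It was lost at a similar fold change with edgeR's quasi-likelihood test (1.02, adjusted p = 0.062) and with the library total as a covariate (1.09, adjusted p = 0.052). It was also lost with the number series as a covariate (log2 fold change 0.64, adjusted p = 0.86), and in number series 1 alone, with 2 sub-acute sham animals, the log2 fold change was 0.44 (limma, adjusted p = 1.00). These last fits called 4 and 0 of all genes tested, so a lost call there is not particular to C3. Of the 2 sub-acute sham animals of series 1, animal AS104 had the highest C3 of its group, at 20.4 CPM.

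**Figure D1:**
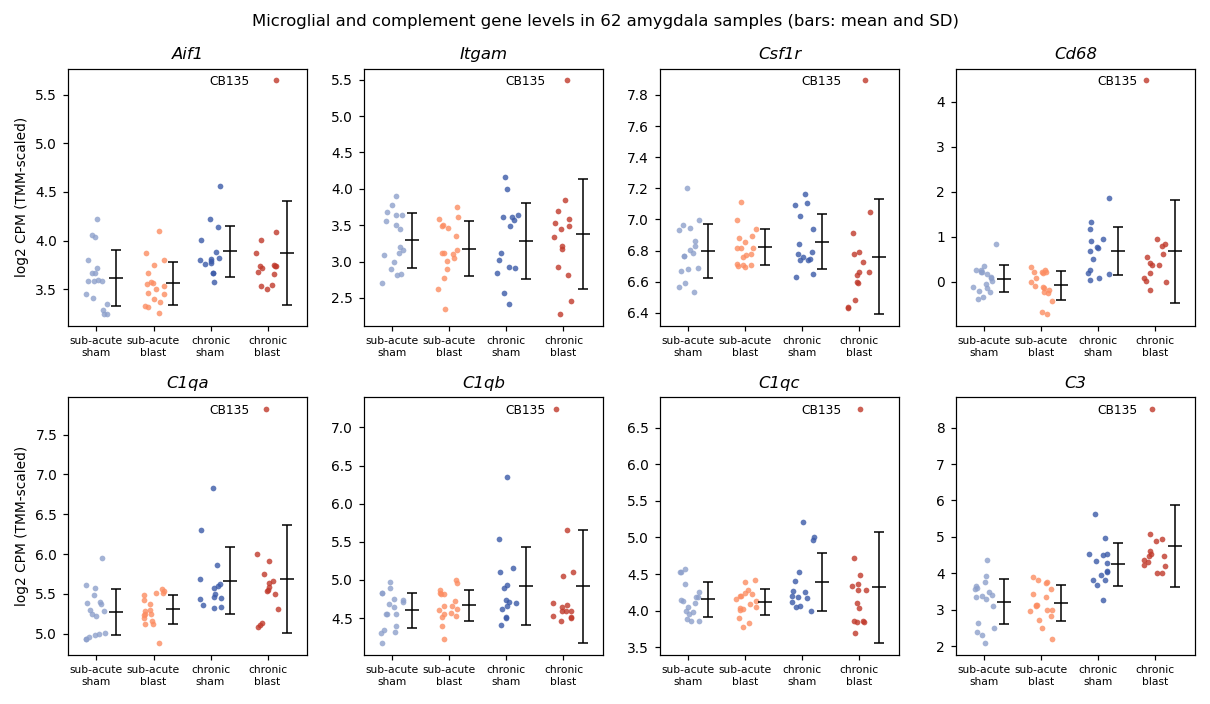
Level of each of the 8 genes in every animal, as TMM-scaled log2 CPM on separate vertical axes, by group (17, 17, 14 and 14 animals), with the mean and SD as bars. Chronic blast animal CB135 is the highest point of its group in all 8 panels, and all 14 chronic blast animals lie above all 17 sub-acute blast animals for C3.

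In blast animals the C3 groups did not overlap. Sub-acute blast animals had a lowest, median and highest C3 level of 4.59, 8.73 and 15.0 CPM, and chronic blast animals of 16.02, 22.2 and 363 CPM. All 14 chronic blast animals lay above all 17 sub-acute blast animals, although the gap between the nearest animals was only 0.093 on the log2 scale. Such separation in this direction was found for 0.0121% of the genes tested, or 2 genes, and C3 was 1 of them. The log2 fold change was 1.61 (SE 0.27, limma, adjusted p = 1.0e-04). It ranged from 1.31 to 1.68 when each of the 62 animals was left out in turn and was called in 62 of 62 such fits. By edgeR's quasi-likelihood test it was 2.30 and by DESeq2, which replaces outlying counts, 1.22, and both called it. With the number series as a covariate it was 1.32 (adjusted p = 0.042), and in series 1 alone, with 5 sub-acute blast animals, it was 1.395 and was not called (limma, adjusted p = 0.19).

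Cd68 (ENSRNOG00000037563) was a gene of low counts, from 18 to 1019 per animal. Its lowest, median and highest levels were 0.564, 0.887 and 1.22 CPM in sub-acute blast animals and 0.842, 1.27 and 22.2 CPM in chronic blast animals. Of the 14 chronic blast animals, 9 lay above every sub-acute blast animal. Cd68 rose with time in blast animals, by a log2 fold change of 0.81 (SE 0.24, limma, adjusted p = 0.018), so that 2 of 8 members were called in blast, where 9.73% of all genes tested were called and 6.71% were called higher. The call was lost with the number series as a covariate (log2 fold change 0.72, adjusted p = 0.19), with the library total as a covariate (0.82, adjusted p = 0.091), when the blast groups were fitted alone (0.81, adjusted p = 0.065) and in number series 1 alone (0.77, adjusted p = 0.43), so the fold change stayed of similar size. By edgeR the value was 1.60 and by DESeq2 0.48, and both called it. In sham animals Cd68 went from 0.724, 1.01 and 1.75 CPM to 0.980, 1.61 and 3.60 CPM, with 5 of 14 chronic animals above every sub-acute animal. That difference was 0.63 on the log2 scale (SE 0.24) and was not called (limma, adjusted p = 0.14). It was called with DESeq2 (0.72, adjusted p = 2.3e-04), when the sham groups were fitted alone (0.64, adjusted p = 0.025) and with sample quality weights (0.57, adjusted p = 0.034). Among limma fits that left out 1 animal, its adjusted p ran from 0.0041 without chronic blast animal CB135 to 0.25 without chronic sham animal CS115.

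The C1q chains had smaller differences between time-points, none of them called by limma, although other fits called C1qa and C1qb. C1qa (ENSRNOG00000012807) had log2 fold changes of 0.39 in sham (adjusted p = 0.14) and 0.38 in blast animals (adjusted p = 0.067). Its lowest, median and highest levels were 30.4, 38.9 and 61.6 CPM in sub-acute sham and 39.9, 46.4 and 114 CPM in chronic sham animals, and all 14 chronic sham animals lay above the sub-acute sham median. In blast animals they were 29.4, 38.9 and 47.0 CPM at the sub-acute and 33.8, 47.5 and 225.9 CPM at the chronic time-point. C1qa in blast was called with edgeR (0.58, adjusted p = 0.011), DESeq2 (0.59, adjusted p = 0.0054), surrogate variables (0.59, adjusted p = 0.0041) and sample quality weights (0.30, adjusted p = 0.049), and in sham with surrogate variables (0.35, adjusted p = 0.044). These fits include chronic blast animal CB135, and without it C1qa in blast was 0.21 (limma, adjusted p = 0.18). In number series 1 alone the C1qa value in sham was -0.01, so that the difference of 0.39 was not seen against the 2 sub-acute sham animals of that series. Of these 2, animal AS104 had the highest C1qa of its group, at 61.6 CPM. C1qb (ENSRNOG00000012749) differed by 0.29 in sham and 0.25 in blast, and C1qc (ENSRNOG00000012804) by 0.22 in both, on the log2 scale, with adjusted p-values from 0.30 to 0.44 (limma). C1qb was called in blast with edgeR (0.50, adjusted p = 0.049) and surrogate variables (0.48, adjusted p = 0.034), and in sham with DESeq2 (0.40, adjusted p = 0.043). Group medians of these chains were nearly level, with C1qb at 25.0 and 26.3 CPM and C1qc at 17.5 and 18.8 CPM in sub-acute and chronic sham animals. In blast animals they were 25.1 and 24.5 CPM for C1qb, with 6 of 14 chronic animals above the sub-acute median, and 17.5 and 18.3 CPM for C1qc. The fits that called C1qb in blast include chronic blast animal CB135, at 151 CPM. Without it the C1qb value in blast was 0.06 (limma, adjusted p = 0.78). The sham fits likewise include chronic sham animal CS115, whose C1qb was 81.9 CPM. Without CS115 the values in sham were 0.21 for C1qb (limma, adjusted p = 0.56) and 0.32 for C1qa (adjusted p = 0.29).

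Of the microglial genes, Aif1 (ENSRNOG00000000853) had a log2 fold change with time of 0.28 in sham (adjusted p = 0.21) and 0.33 in blast animals (adjusted p = 0.059), neither of them called. In blast it was called with edgeR (0.43, adjusted p = 0.020), DESeq2 (0.44, adjusted p = 0.012) and library size scaling (0.36, adjusted p = 0.047), and by limma in 11 of 62 fits that left out 1 animal. Without chronic blast animal CB135 Aif1 in blast was 0.18 (limma, adjusted p = 0.17). Median levels were 12.0 and 13.9 CPM in sub-acute and chronic sham animals and 11.6 and 13.3 CPM in sub-acute and chronic blast animals. Csf1r (ENSRNOG00000018414), the best counted microglial gene, had the narrowest intervals. Its medians were 110 CPM in both sham groups, and its log2 fold change with time was 0.06 in sham (95% interval -0.10 to 0.22) and -0.06 in blast animals (-0.22 to 0.10). In blast animals the medians were 112.4 CPM at the sub-acute and 101.3 CPM at the chronic time-point, with 8 of 14 chronic animals below every sub-acute animal and 1 above all of them. Itgam (ENSRNOG00000019728) differed by 0.00 in sham (-0.36 to 0.36) and 0.25 in blast animals (-0.11 to 0.61). Over the 8 members the median log2 fold change with time was 0.29 in sham and 0.29 in blast animals, where the median over all genes tested was -0.0047 and -0.017. In number series 1 alone the members' median was 0.046 in sham, with 4 of 8 above 0, and 0.36 in blast, and in blast it was 0.49 with edgeR and 0.45 with surrogate variables. That sham value rests on 2 sub-acute animals, of which AS104 was highest of its group in 7 of the 8 genes. An unadjusted p under 0.05 was found for 4 of the 8 in each treatment group, where 18% of all genes tested had one in sham and 29.8% in blast animals.

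**Figure D2:**
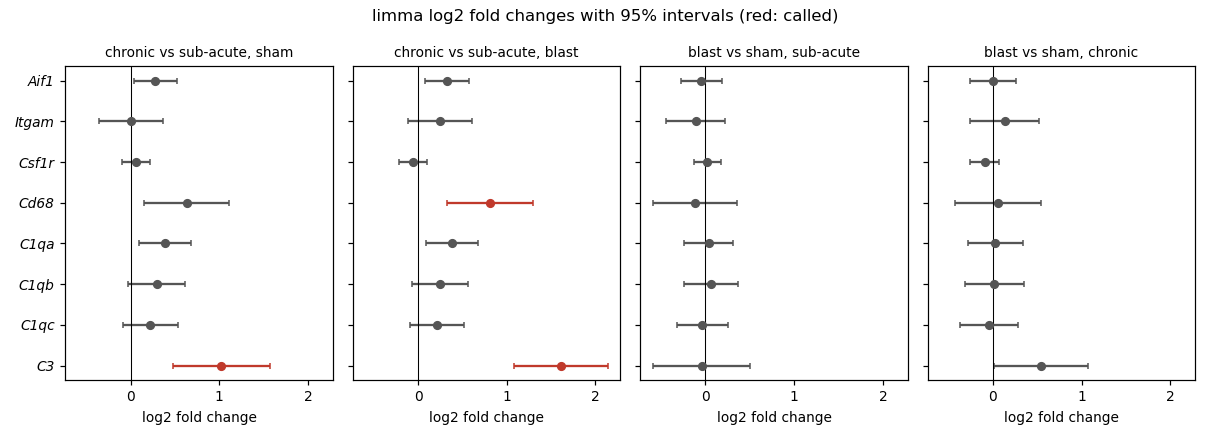
Log2 fold changes of the 8 genes in 4 comparisons from limma over 62 animals, with 95% intervals as horizontal bars and called genes in red. The called values are C3 with time in sham (1.02) and in blast (1.61) and Cd68 with time in blast (0.81).

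Blast and sham animals were compared within each time-point to ask what exposure itself did. At the sub-acute time-point no member was called, with log2 fold changes from -0.12 for Cd68 to 0.06 for C1qb and adjusted p-values of at least 0.87 (limma). The percentage of all genes called was 0, and 5.18% had an unadjusted p under 0.05, but none of the 8 members. The intervals bound the difference most closely for Csf1r (-0.13 to 0.17) and least closely for C3 (-0.59 to 0.50) and Cd68 (-0.60 to 0.35). Neither edgeR's quasi-likelihood test nor DESeq2 called a member.

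At the chronic time-point 0 members and 0 genes overall were called, with 5.04% of genes at an unadjusted p under 0.05. C3 was the member that had such a p, with a log2 fold change of 0.54 (95% interval 0.01 to 1.07, unadjusted p = 0.045, adjusted p = 0.90). Of 14 chronic blast animals, 12 had more C3 than the median chronic sham animal, while 1 exceeded the highest chronic sham animal. The other 7 members differed by -0.10 (Csf1r) to 0.13 (Itgam) on the log2 scale. The treatment by time interaction asks whether the change with time differs between blast and sham. By limma over all animals it was called for 0 members and 0 genes, with 5.56% of genes and no member at an unadjusted p under 0.05. Its value for C3 was 0.59 (95% interval -0.18 to 1.35, adjusted p = 0.85), so the larger change of C3 in blast was not distinguished from that in sham. edgeR and DESeq2 called no member for treatment at the chronic time-point or for the interaction, although edgeR put the chronic C3 difference at 1.19 on the log2 scale (unadjusted p = 6.9e-04, adjusted p = 0.76). For treatment at the chronic time-point, 2 members had an unadjusted p under 0.05 with edgeR (1013 of 16535 genes tested did) and with DESeq2 (1138 genes). With only the compared groups (598 genes), the number series as a covariate (962) or no low-count filter (1277 of 26364), 0 members did. For the interaction, 2 members had an unadjusted p under 0.05 with edgeR, as did 1143 of 16535 genes tested. With surrogate variables 1 member did (643 genes), and without animal CB135 also 1 (1134 genes).

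A single chronic blast animal, labeled CB135, stood apart in all 8 genes, and it is described because of its values. It had the highest level of its group in 8 of 8 members, where it was highest in 7.41% of all genes tested. Its level was 363 CPM for C3, against a median of 22.1 and a highest of 34.1 CPM in the other 13 chronic blast animals, and 22.2 CPM for Cd68, against 1.25 and 1.89 CPM. Relative to the median of these 13 animals, Cd68 was 17.2-fold and C3 16.4-fold higher. The C1q chains were 4.82-fold (C1qa), 6.28-fold (C1qb) and 6.26-fold (C1qc) higher, Itgam 4.45-fold, Aif1 3.78-fold and Csf1r 2.35-fold. These were not its only high genes, since 590 of 16535 genes (3.57%) were at least 2-fold above the median of the others and 20 were at least 16-fold above it. A count of 590 was not unusual in this group. Each of the other 13 animals had 167 to 1990 genes at least 2-fold above the median of the rest, with a median of 428. Ranked by the difference of CB135 from the others' median, Cd68 was 17th and C3 19th among all genes tested. The C1q chains were 58th, 59th and 80th, and Csf1r was 414th. The library held 46098756 counts, and the 16645 counts of C3 and 1019 of Cd68 leave little counting error.

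**Figure D3:**
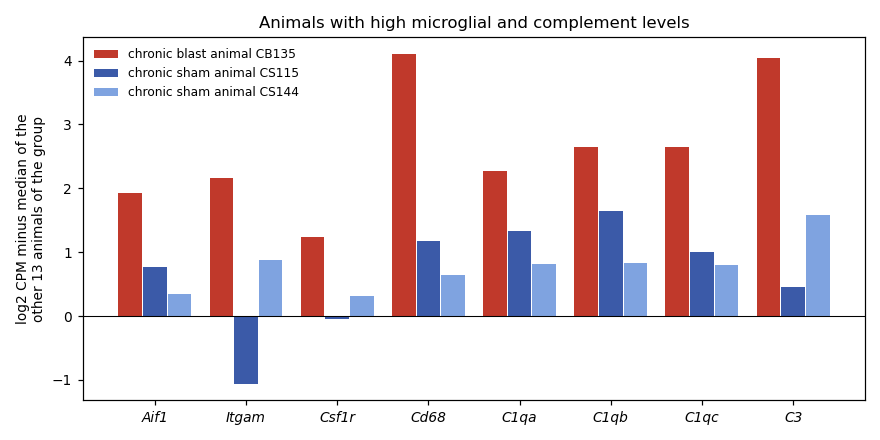
Log2 CPM of 3 chronic animals minus the median of the other 13 animals of their group, for each of the 8 genes. Chronic blast animal CB135 is above 0 in every gene and reaches about 4 log2 units in Cd68 and C3, whereas chronic sham animal CS115 is below 0 in Itgam.

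Animals with raised levels were also found among sham animals, at smaller size. Chronic sham animal CS115 was highest of its group in Aif1, Cd68 and the 3 C1q chains, with C1qb at 81.9 CPM against a median of 26.1 CPM in the others, but was lowest in Itgam at 5.32 CPM. That library was shallow, at 20582780 counts. It was highest of its group in 25.5% and lowest in 29.6% of all genes, so its levels stood apart widely. The other library under 25000000 counts, chronic blast animal CB149 with 18220986, was highest of its group in 23.6% and lowest in 29.6% of all genes. It was second highest in C1qa and C1qb, at 63.8 and 50.3 CPM, and lowest in Itgam at 4.80 CPM. Chronic sham animal CS144 had the highest C3 of its group at 49.6 CPM and was second highest in Itgam, Cd68 and the 3 C1q chains. Sub-acute sham animal AS104 was highest of its group in 7 of the 8 genes, with folds over the others' median from 1.29 for C1qb to 1.98 for C3, and was highest in 10.8% and lowest in 15.2% of all genes tested. Animals CS115, CB149, CS144 and AS104 were likewise picked after their values were seen.

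Leaving out animal CB135 changed several of the values above. In the comparison of time in blast animals, the log2 fold change became 1.31 for C3 (adjusted p = 5.6e-06) and 0.48 for Cd68 (adjusted p = 0.020), and both stayed called. It went to 0.18 for Aif1, 0.21 for C1qa, 0.06 for C1qb, 0.01 for C1qc and 0.07 for Itgam, and the median over the 8 members from 0.29 to 0.12. Csf1r went from -0.06 to -0.15 (adjusted p = 0.66 and 0.086). In sham animals the fold changes were nearly the same, but the SE of C3 went from 0.27 to 0.18 because the spread is shared by all groups, and 3 members were then called, where 1.71% of all genes tested were, namely C3 (adjusted p = 4.4e-04), Cd68 (0.0041) and C1qa (0.030). For blast against sham at the chronic time-point, C3 became 0.24 (unadjusted p = 0.20), and 7 of 8 members had a value below 0, from -0.04 for Itgam to -0.28 for Cd68, with none called and all adjusted p-values at least 0.86 (limma). Csf1r and C1qc had unadjusted p-values of 0.0052 and 0.026 in that fit (limma), where 939 of 16535 genes tested had one under 0.05. This fit was chosen after the animal's values were seen. The direction of the members in this comparison depended on the fit. With all animals, 6 of 8 were above 0. It was 7 of 8 without chronic sham animal CS115, without the 2 libraries under 25000000 counts and with edgeR. It was 8 of 8 with surrogate variables, 4 of 8 with DESeq2 and 3 of 8 with the library total as a covariate.

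**Figure D4:**
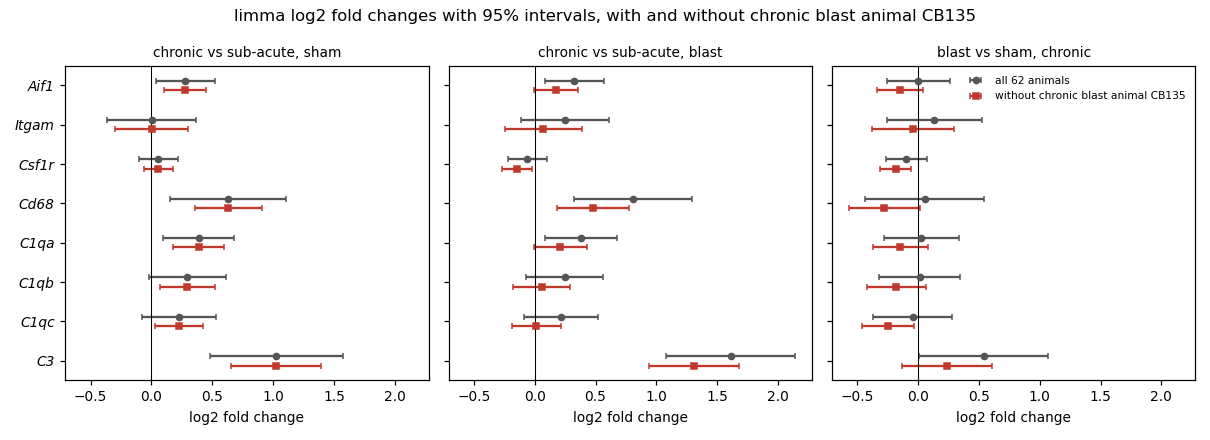
Log2 fold changes with 95% intervals for 3 comparisons from limma, with all 62 animals (grey circles) and without chronic blast animal CB135 (red squares). Without it, C3 stays well above 0 with time in both treatment groups (1.02 and 1.31) and goes from 0.54 to 0.24 for blast against sham at the chronic time-point.

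Finally, the 8 genes were compared across animals within groups, using the deviation of each animal's log2 CPM from its group mean. All 28 pairs correlated positively, with Pearson's r from 0.37 to 0.94 (median 0.69, n = 62), and 28 of 28 had an adjusted p under 0.05 by permutation within groups, adjusted over 28 pairs. By Spearman's rho, which ranged from 0.10 to 0.86, 20 of 28 did. Without animal CB135 the Pearson count was 18 of 28, the median r was 0.38 and the lowest r was -0.03, so a large part of the pooled values rested on that animal.

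The C1q chains kept the closest relation. C1qa and C1qb had r = 0.94 and rho = 0.86 (permutation test, two-sided, p = 1e-05 for each, the smallest that 100000 permutations can give), r = 0.84 without the 2 animals farthest from the median of C1qa, and r = 0.88 without animal CB135. C1qa and C1qc had r = 0.92 and rho = 0.80, with r = 0.81 without the 2 farthest animals and 0.83 without animal CB135. For C1qb and C1qc these values were 0.86, 0.72, 0.67 and 0.72. The log2 ratio of C1qa to C1qb had a within-group SD of 0.16, where the genes themselves had SDs of 0.42 and 0.46. Without animals CB135 and CS115 these gene SDs fell to 0.26 and 0.27, and that of C1qc was 0.26. The ratio SDs were then 0.16 for C1qa to C1qb, 0.17 for C1qa to C1qc and 0.22 for C1qb to C1qc. The ratio of C1qb to C1qc was thus only a little steadier than the levels. C3 was most closely related to Csf1r (r = 0.78, rho = 0.60, r = 0.55 without the 2 farthest animals and 0.57 without animal CB135), a pair named after its value was seen. In contrast, Cd68 and C1qa had r = 0.68 but rho = 0.13, and r = 0.29 without animal CB135 (adjusted permutation p = 0.067), so that relation rested on a few animals. Itgam and C1qa had r = 0.37, which went to -0.03 without animal CB135 and to 0.56 without the 2 libraries under 25000000 counts.

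**Figure D5:**
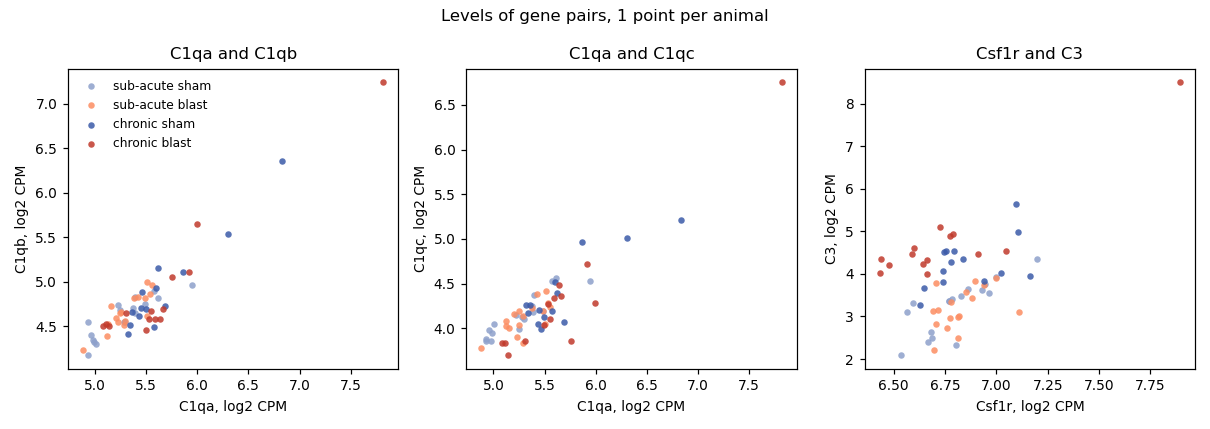
Log2 CPM of C1qa against C1qb, C1qa against C1qc and Csf1r against C3, with 1 point per animal colored by group. The C1q chains lie along a narrow band in all 4 groups, and chronic blast animal CB135 is the point at the upper right of each panel.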

How the data were processed

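Amygdala RNA of 62 rats was sequenced as rRNA-depleted stranded libraries. The authors aligned reads with STAR 2.4.2a to Rnor 6.0 and deposited raw counts per Ensembl gene from featureCounts 1.4.3-p1, and the strand setting was not given in the sources used here. Groups came from the labels, and 2 columns that match no sample were not used. The 8 genes, the lists and the tests were chosen with earlier results of these data known, and gene symbols follow the rule that chose them, since 0 of 32545 IDs could be paired with a symbol in the gene table. TMM factors (edgeR 4.0.16) and voom, which the study used, were followed by a limma 3.58.1 fit (R 4.3.3) of 4 group means, after edgeR's filter on low counts. Log2 CPM used a prior count of 2. The 12 other settings listed at the outset included edgeR's quasi-likelihood test, DESeq2 1.42.0, sva 3.50.0 (9 surrogate variables), scaling, weights and covariates. Fits by number series, without animals CB135 or CS115, and with each of the 62 animals left out were chosen after seeing the data. Fits and correlations were tested on simulated data. The planned wider list of complement and microglia genes, the cell type markers and the most similar genes could not be run or named, because IDs could not be paired with symbols, so the cell makeup of the punches was not checked.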

Additional observations from a re-analysis of the deposited data

How the results depend on the processing

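Of 709 values computed under alternatives for 55 results (12 settings listed at the outset and 4 chosen after seeing the data, besides the 62 fits that each left out 1 animal), 600 kept their direction and side of the threshold or moved little. A members' median counted as moving little within the members' median within-group SD, and all did. This holds even for a changed sign, as for the interaction, from 0.020 to -0.17 without animal CB135. For treatment and the interaction no fit called any gene, so the count of members called stayed at 0. Such values say little about steadiness. The number of members called with time is given here with the share of all genes called in the same fit. In sham, against 1 member and 1.55%, there were 3 members with DESeq2 (2.75%) and without animal CB135 (1.71%), and 2 with sample quality weights (4.94%), surrogate variables (2.79%) and only the compared groups (1.17%). There were 0 with edgeR's quasi-likelihood test (1.89%), the library total as a covariate (0.847%), the number series as a covariate (0.0242%) and in number series 1 only (0%). The last pair of fits called few genes of any kind, and the C3 fold change in sham was also smaller in both. The members' median log2 fold change in sham was 0.28 and 0.046 in these 2 fits, against 0.29 in the main fit. In blast, against 2 members and 9.73%, there were 5 with edgeR (13%), 4 with DESeq2 (14%), surrogate variables (2.36%) and without animal CS115 (10.4%), and 3 with library size scaling (9.05%) and quality weights (12.4%). There was 1 with only the compared groups (9.08%), the library total (3.38%) and the number series (1.69%) as a covariate, and 0 in number series 1 only (0.0847%). The causes were not tested. Leaving out 1 animal at a time, C3 in sham was called in 58 of 62 fits, with a highest adjusted p of 0.073 without chronic sham animal CS144 and a lowest of 4.4e-04 without animal CB135, and Cd68 in blast in 62 of 62. The count of correlated pairs was 18 of 28 without animal CB135. No paired analysis was possible because each animal gave a single sample and no animal number occurs in more than 1 group.

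Signs changed in 64 values of 23 of the 40 gene comparisons, and in 0 of the 64 was the gene called in either fit. The values, as log2 fold changes, follow. For blast against sham at the chronic time-point, they were -0.37 (Cd68) and -0.25 (C1qb) with DESeq2, 0.17 (C1qc) with edgeR, -0.0025 (Aif1) with only the compared groups and -0.0077 (Aif1) with no low-count filter. They were further -0.025 (Aif1), -0.0050 (C1qa) and -0.021 (C1qb) with the library total as a covariate, -0.020 (Aif1), -0.052 (Itgam) and 0.013 (C1qc) with quality weights, 0.0053 (Csf1r) and 0.17 (C1qc) with surrogate variables and 0.010 (C1qc) without the 2 libraries under 25000000 counts. Without animal CB135 and without animal CS115, in that order, the values were -0.15 and 0.046 (Aif1), -0.042 and 0.093 (Itgam), -0.28 and 0.12 (Cd68), -0.14 and 0.11 (C1qa), -0.18 and 0.11 (C1qb), -0.25 and 0.012 (C1qc). At the sub-acute time-point, they were 0.011 (Aif1), 0.025 (Itgam) and -0.00046 (C1qa) with quality weights, -0.031 (C1qa) and -0.028 (C1qb) with surrogate variables, 0.0100 (Itgam), -0.070 (Csf1r), -0.41 (C1qa) and -0.19 (C1qb) in number series 1 only and 0.0063 (Aif1) in number series 2 only. With time in sham, they were -0.15 (Itgam) with the number series as a covariate and -0.036 (Itgam), -0.037 (Csf1r), -0.0067 (C1qa) and -0.072 (C1qc) in number series 1 only. With time in blast, they were 0.068 (Csf1r) with surrogate variables. For the interaction, they were -0.23 (Cd68) and 0.15 (C1qa) with DESeq2, 0.15 (C1qa), 0.11 (C1qb) and 0.21 (C1qc) with edgeR, 0.012 (C1qa) and 0.014 (C1qc) with library size scaling, -0.0076 (Aif1) with the library total as a covariate and -0.031 (Aif1), -0.077 (Itgam), 0.065 (C1qa) and 0.10 (C1qc) with quality weights. They were further 0.23 (C1qa), 0.21 (C1qb) and 0.23 (C1qc) with surrogate variables, 0.012 (C1qa) and 0.019 (C1qc) with the number series as a covariate, 0.43 (C1qa), 0.20 (C1qb) and 0.26 (C1qc) in number series 1 only and 0.051 (C1qa), 0.0022 (C1qb) and 0.045 (C1qc) without the 2 libraries under 25000000 counts. Without animal CB135 and without animal CS115, in that order, the values were -0.10 and 0.094 (Aif1), -0.16 and 0.24 (Cd68), -0.18 and 0.078 (C1qa), -0.24 and 0.051 (C1qb), -0.21 and 0.049 (C1qc).

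Counts limit Cd68 most, with medians of 50 to 72.5 counts per animal in the 4 groups. Age, time since the procedure and the tests given cannot be told apart. The comparison of time-points largely follows the number series. With the series as a covariate C3 in blast was 1.32 and still called, where calls over all genes in blast went from 1609 to 280. Cd68 in blast and C3 in sham were no longer called. Members called went from 2 to 1 in blast and from 1 to 0 in sham, where calls over all genes went from 256 to 4.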
